A study of Mus musculus with 24 samples.

Results

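Liver RNA of male mice was examined for 9 genes of glycogen storage and breakdown, 4 glycogen targeting subunits of protein phosphatase 1 (PP1) and 5 enzymes or enzyme subunits, of 41388 genes in the gene models. The subunits were Ppp1r3g, Ppp1r3b, Ppp1r3c and Ppp1r3d, and the enzyme genes were Gys2, Gbe1, Pygl, Ugp2 and Phka2. The genes were taken by symbol, and Ppp1r3g was chosen by its measured change between these groups, so its values are given as a description with no test. The other 8 were taken for their role in glycogen metabolism. The mice were WT (homozygous Lpin1-floxed littermates without Cre) or Adn-Lpin1-/-, in which Cre driven by the adiponectin promoter removes lipin 1, a phosphatidic acid phosphohydrolase, from adipocytes, and both were on a C57BL/6J background. The floxed allele was thus carried by all mice, and the deletion was constitutive and not targeted to the liver, so Lpin1 in liver RNA does not check the genotype labels. Feeding began at 8 weeks of age with diets that drew 10% (LFD) or 60% (HFD) of their kcal from fat, and food was withdrawn 4 hours before the livers were taken. The time on the diets is 5 weeks by the study's methods and 16 weeks by the sample labels. Each of the 4 groups held libraries of 5 single mice, and RNA of those 5 mice was also pooled into 1 further library.

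Glycogen is the store of glucose in hepatocytes. UDP-glucose pyrophosphorylase (Ugp2) makes the activated sugar, liver glycogen synthase (Gys2) adds it to the chains and the branching enzyme (Gbe1) makes the branch points, whereas liver glycogen phosphorylase (Pygl) removes glucose units after phosphorylase kinase, whose liver alpha subunit is Phka2, has switched it on. PP1 reverses those phosphorylations, which turns the synthase on and the phosphorylase off, and the targeting subunits bring PP1 to the glycogen particle. Ppp1r3b (GL) is the main subunit of liver and is bound by active phosphorylase, Ppp1r3c is known as PTG and Ppp1r3d as R6, and Ppp1r3g is a subunit reported to change with fasting and feeding in liver.

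Total counts per mouse ranged from 36260187 to 81072794, with a median of 40777580 in WT LFD and 57124312 in WT HFD, and 52955319 in Adn-Lpin1-/- LFD against 62306028 in Adn-Lpin1-/- HFD. The summed level of 6 hepatocyte markers (Alb, Ttr, Apoa1, Apoc3, Fgb and Tat) ranged from 102900 to 112000 CPM (counts scaled to a common library total) in WT LFD and from 75280 to 100100 CPM in Adn-Lpin1-/- LFD, without overlap, and from 92180 to 120500 CPM in WT HFD against 78850 to 104000 CPM in Adn-Lpin1-/- HFD, with medians of 106100, 97830, 112700 and 79230 CPM in that order. The part of this difference in the genotype comparisons was not tested. The summed level of 5 skeletal muscle markers was at most 0.360 CPM. The summed level of 5 adipocyte markers (Adipoq, Lep, Plin1, Retn and Cfd) ranged from 0.261 to 4.63 CPM in WT LFD and from 1.42 to 16.6 CPM in WT HFD, and from 1.80 to 36.1 CPM in Adn-Lpin1-/- LFD against 3.96 to 183.5 CPM in Adn-Lpin1-/- HFD, with Retn at 0 throughout WT LFD and Plin1 at 0 throughout Adn-Lpin1-/- LFD. Only 1 of the 5 adipocyte markers exceeded 1 CPM in 4 or more libraries, so these sums do not show that the 5 rose together. In bulk liver, more RNA per cell and more cells of a type cannot be told apart.

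Per length of transcript, Pygl, Gys2 and Ugp2 were the most abundant of these genes and the targeting subunits spanned the widest range. In WT LFD the deposited RPKM (reads scaled by transcript length and library total) was 143.8 ± 12.4 (SD, n = 5) for Pygl, 142.2 ± 15.1 for Gys2 and 119.5 ± 20.97 for Ugp2, and the mice of neighbours in this order overlapped. Ppp1r3b followed at 35.2 ± 14.3 RPKM, whose mice lay below those of Ugp2 and overlapped with Gbe1 at 20.4 ± 4.37 RPKM. Ppp1r3c at 9.47 ± 2.41 RPKM, Phka2 at 4.32 ± 0.581 RPKM, Ppp1r3g at 1.16 ± 0.390 RPKM and Ppp1r3d at 0.0535 ± 0.0475 RPKM each lay below the preceding gene in every mouse. The first 5 places were held by the same genes in the other 3 groups. Ppp1r3g stood in place 8 in WT LFD, WT HFD and Adn-Lpin1-/- HFD and in place 6 in Adn-Lpin1-/- LFD, where its RPKM of 17.2 ± 7.69 overlapped with Gbe1 above it and with Ppp1r3c below it.

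Ppp1r3g (ENSMUSG00000050423) lies on the plus strand of chr13:35958839-35970388 (GRCm38) and has 3 exon blocks in the gene models used for counting, which share no base with an exon of another gene. Because it is the subunit with the widest differences, the 250 bases before its RefSeq start site (GRCm38.p6, chr13:35967656-35967905, plus strand) are shown beside those of Ppp1r3c (chr19:36736605-36736854, minus strand), whose level in the same livers differed far less. Both runs are read 5′ to 3′ on the gene's own strand, and capitals mark matches to any of 8 short motifs on either strand.
Ppp1r3g: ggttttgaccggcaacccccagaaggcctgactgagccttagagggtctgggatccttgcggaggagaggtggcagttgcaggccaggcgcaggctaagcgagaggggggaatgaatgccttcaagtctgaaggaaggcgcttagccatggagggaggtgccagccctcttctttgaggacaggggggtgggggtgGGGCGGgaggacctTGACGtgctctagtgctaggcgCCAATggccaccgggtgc
Ppp1r3c: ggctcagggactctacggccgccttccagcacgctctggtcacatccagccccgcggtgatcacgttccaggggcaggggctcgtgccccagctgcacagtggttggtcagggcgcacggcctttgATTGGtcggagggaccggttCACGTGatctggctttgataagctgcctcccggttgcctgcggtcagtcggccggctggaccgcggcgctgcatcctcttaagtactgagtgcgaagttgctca
The motifs searched were the E-box (letters CACGTG), the FOXO site (letters TGTTTAC), the cAMP response half-site (letters TGACG), the SP1 box (letters GGGCGG), the CCAAT box, the nuclear receptor half-site (letters AGGTCA), the C/EBP site (letters TTGCNNAA) and the sterol element (letters TCACNCCAC). The Ppp1r3g window held the SP1 box, the cAMP response half-site and the CCAAT box, beginning 54, 40 and 18 bases before the start site, and the 3 matches did not overlap. These letters occur in 32.7%, 17.8% and 33.8% of the 32851 RefSeq windows of the same length. The Ppp1r3c window held the E-box, found in 6.02% of all windows, 104 bases before its start and a CCAAT box on the opposite strand 124 bases before it. No match to the FOXO, nuclear receptor, C/EBP or sterol letters was present in either window. The gene model of Ppp1r3g begins further upstream, at 35958839, so this window lies inside the counted gene and the sequence before that earlier start is not shown. In the gene models the exon that begins at this Ppp1r3g promoter reaches a little further upstream, so the last bases of its window are transcribed there. The model of Ppp1r3c reaches to 36736653, so the last bases of its window also lie in the model. The promoter table held 7 of the 9 genes, without Ppp1r3b and Gys2.

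Ppp1r3g transcripts were low in both WT groups and many times more abundant in Adn-Lpin1-/- LFD livers. The 5 WT LFD mice had 3.17, 2.09, 4.91, 2.48 and 2.84 CPM, scaled between libraries by the TMM method, from 93 to 165 reads each. The 5 Adn-Lpin1-/- LFD mice had 45.9, 71.7, 18.6, 42.0 and 36.0 CPM, from 1165 to 3718 reads each. Every Adn-Lpin1-/- LFD mouse was above every WT LFD mouse, and the lowest of them, mouse 3, was still far above the highest WT LFD mouse. The WT HFD mice had 1.60, 0.564, 1.42, 2.56 and 1.61 CPM, with 31 reads in the lowest, mouse 2. The Adn-Lpin1-/- HFD mice had 4.21, 4.10, 3.53, 9.10 and 4.59 CPM, all above the WT HFD mice, with mouse 4 apart from the other 4 mice. The deposited pools, calculated without TMM scaling, gave 2.90 CPM for WT LFD, 44.6 for Adn-Lpin1-/- LFD, 1.401 for WT HFD and 5.16 for Adn-Lpin1-/- HFD, each within the range of its mice.

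**Figure D1:**
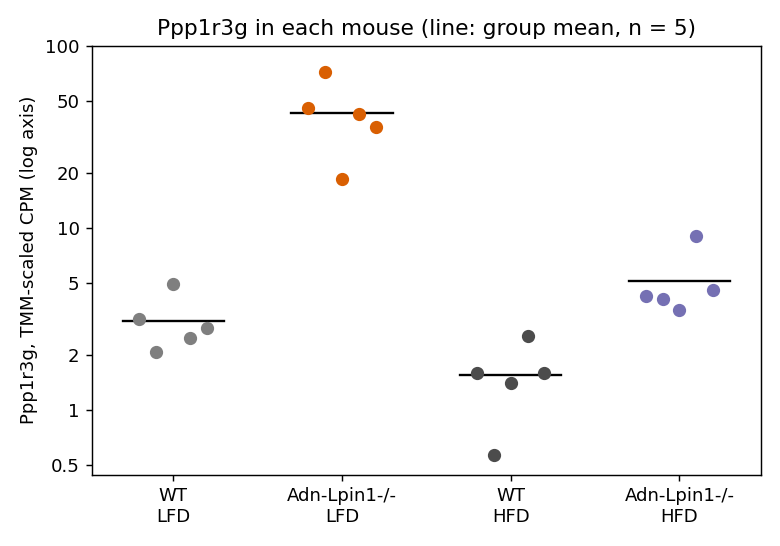
Ppp1r3g in TMM-scaled CPM on a log axis, with 1 point per mouse and a line at the mean of each group (n = 5). The Adn-Lpin1-/- LFD mice lie between 18.6 and 71.7 CPM, and no mouse of another group exceeds 9.10 CPM.

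The Adn-Lpin1-/- LFD mice had a mean Ppp1r3g level of 42.8 ± 19.2 CPM and the WT LFD mice one of 3.10 ± 1.09 CPM (SD, n = 5), a ratio of 13.8. On the HFD the means were 5.11 ± 2.26 and 1.55 ± 0.710 CPM, a ratio of 3.29. The fitted log2 fold change between genotypes was 3.80 on the LFD and 1.71 on the HFD, places 2 and 47 from the highest among the 13052 genes tested. Between diets the log2 fold change, HFD over LFD, was -0.99 in WT, where the mice of the diets overlapped, and -3.07 in Adn-Lpin1-/-, where they did not. The genotype difference was thus 2.08 log2 units smaller on the HFD, place 8 from the lowest of all genes. For this difference 0.0% of all tested genes passed an adjusted p of 0.05 in edgeR's quasi-likelihood test. Ordered by mean, Adn-Lpin1-/- LFD came first without overlap, and the neighbours Adn-Lpin1-/- HFD and WT LFD overlapped, as did WT LFD and WT HFD. These are the measurements by which the gene was selected, and they support nothing further here. The coefficient of variation among the mice of a group was between 35.3% and 45.8%, and that of Pygl between 3.50% and 11.9%.

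The other targeting subunits showed no such separation. Ppp1r3b (chr8:35375741-35388124, plus strand, 2 exon blocks) had 138.3, 102, 263, 174 and 105 CPM in the WT LFD mice and 121, 131, 120.3, 168 and 127 CPM in the Adn-Lpin1-/- LFD mice, so the Adn-Lpin1-/- mice lay inside the WT range. The WT HFD mice had 165, 155, 150.5, 262 and 143 CPM, and the Adn-Lpin1-/- HFD mice had 251, 167, 197.5, 202 and 50.5 CPM. Mouse 4 was high in WT HFD and, by a smaller amount, among the Adn-Lpin1-/- mice on the LFD, mouse 3 was the highest of WT LFD, and mouse 5 of the Adn-Lpin1-/- HFD group was the lowest of all. Between genotypes the log2 fold change was -0.23 (95% interval -0.87 to 0.41) on the LFD and -0.01 (-0.65 to 0.63) on the HFD, with adjusted p of 0.667 and 0.982 in edgeR's quasi-likelihood test. Without WT LFD mouse 3 the first of these was 0.04, and without Adn-Lpin1-/- HFD mouse 5 the second was 0.22. Between diets the values were 0.16 (-0.48 to 0.80) in WT and 0.38 (-0.26 to 1.02) in Adn-Lpin1-/-, with adjusted p of 0.846 and 0.596.

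Ppp1r3c (chr19:36731737-36736653, minus strand, 2 exon blocks) had 19.7, 20.2, 29.6, 30.1 and 36.0 CPM in WT LFD and 18.1, 12.2, 23.3, 15.2 and 20.3 CPM in Adn-Lpin1-/- LFD. Of the 5 Adn-Lpin1-/- LFD mice 3 lay below every WT LFD mouse and the other 2 inside their range, and the log2 fold change was -0.61 (-1.27 to 0.06, adjusted p = 0.217 in edgeR's test). The WT HFD mice had 33.1, 20.2, 21.6, 51.7 and 40.04 CPM, and the Adn-Lpin1-/- HFD mice had 21.9, 23.5, 30.1, 57.8 and 13.5 CPM, a log2 fold change of -0.19 (-0.84 to 0.47, adjusted p = 0.715 in edgeR's test). In each HFD group mouse 4 was the highest. Between diets Ppp1r3c differed by a log2 fold change of 0.72 in Adn-Lpin1-/- (0.06 to 1.38, unadjusted p = 0.0343 and adjusted p = 0.265 in edgeR's test) and 0.30 in WT (-0.36 to 0.96, adjusted p = 0.698). Neither passed the threshold over all genes, and the direction in Adn-Lpin1-/- was opposite to that of Ppp1r3g.

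Ppp1r3d (chr2:178411206-178414472, minus strand, 1 exon) was close to the detection limit, with 2 to 16 reads per mouse in WT LFD and 4 to 12 in WT HFD, and 6 to 18 in Adn-Lpin1-/- LFD against 10 to 22 in Adn-Lpin1-/- HFD. Its highest level in any mouse was 0.417 CPM, under the limit of 1 CPM for testing, so it was left out of the tests between the groups. Of the 9 genes 8 were therefore tested, and of the 8 other than Ppp1r3g 7 were.

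The makeup of the subunit transcripts was summarised as the share of each gene in the summed RPKM of the 4 subunits. Ppp1r3b held 75.5% ± 7.51 (SD, n = 5) in WT LFD and 76.6% ± 5.44 in WT HFD, and 57.7% ± 6.78 in Adn-Lpin1-/- LFD against 74.7% ± 9.56 in Adn-Lpin1-/- HFD. Ppp1r3g held 2.57% ± 0.457 in WT LFD and 1.10% ± 0.339 in WT HFD, and 29.8% ± 10.2 in Adn-Lpin1-/- LFD against 4.52% ± 3.05 in Adn-Lpin1-/- HFD. In the Adn-Lpin1-/- LFD mice its share ran from 16.5% to 44.3%, above that of Ppp1r3c in 4 of the 5 mice, whereas it was below that of Ppp1r3c in all mice of the other 3 groups. Since Ppp1r3g was selected on its change, these shares are a description. The summed RPKM of the 4 subunits was 45.8 ± 15.1 in WT LFD and 52.5 ± 15.1 in WT HFD, and 56.2 ± 7.87 in Adn-Lpin1-/- LFD against 56.7 ± 22.1 in Adn-Lpin1-/- HFD, with overlap of all groups. A transcript share says nothing of the amounts of the proteins or of where they bind.

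**Figure D2:**
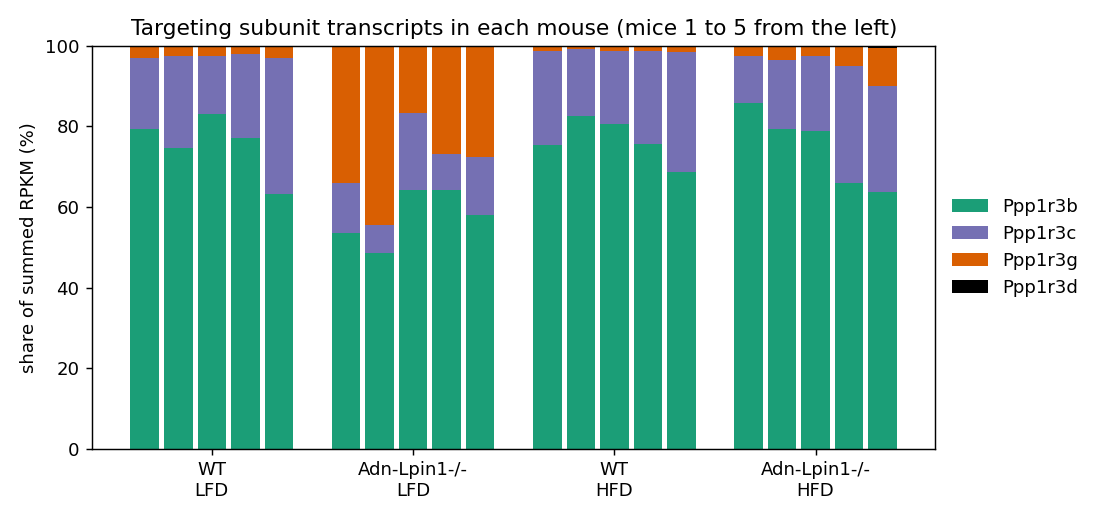
Share of each targeting subunit in the summed RPKM of Ppp1r3b, Ppp1r3c, Ppp1r3g and Ppp1r3d, with 1 stacked bar per mouse adding to 100%. Ppp1r3g takes 16.5% to 44.3% in the Adn-Lpin1-/- LFD mice and at most 9.65% in any other mouse.

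The enzyme genes differed far less between the groups than Ppp1r3g. Gys2 (chr6:142422613-142473109, minus strand, 17 exon blocks) had 347, 366, 418, 467 and 392 CPM in WT LFD and 341, 343, 334, 477 and 284 CPM in Adn-Lpin1-/- LFD. It had 295, 280.1, 297, 322 and 439 CPM in WT HFD and 256, 253, 213, 337 and 364 CPM in Adn-Lpin1-/- HFD. Its means in these groups, in that order, were 398 ± 46.9, 356 ± 71.8, 326.5 ± 64.8 and 285 ± 63.3 CPM (SD, n = 5), and each neighbouring pair of groups overlapped. The log2 fold change of Gys2, HFD over LFD, was -0.29 in WT (-0.61 to 0.04, adjusted p = 0.386) and -0.32 in Adn-Lpin1-/- (-0.65 to 0.00, adjusted p = 0.313), and between genotypes it was -0.16 (-0.48 to 0.16, adjusted p = 0.521) on the LFD and -0.20 (-0.52 to 0.12, adjusted p = 0.393) on the HFD, all in edgeR's test. None passed the threshold.

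Ugp2 (chr11:21321138-21371201, minus strand, 11 exon blocks) had 316, 410.4, 326, 404 and 471 CPM in WT LFD and 287, 328, 319.8, 310.5 and 289 CPM in WT HFD, a log2 fold change of -0.33 (-0.58 to -0.08, unadjusted p = 0.0119, adjusted p = 0.181 in edgeR's test). The WT HFD mice were close together, and the WT LFD mice overlapped with them at the lower end. The Adn-Lpin1-/- mice had 327, 319.7, 295.5, 298 and 450.1 CPM on the LFD, where mouse 5 stood apart, and 361, 304, 355, 317 and 278 CPM on the HFD. Between genotypes the log2 fold change of Ugp2 was -0.19 (-0.44 to 0.06, adjusted p = 0.308) on the LFD and 0.07 (-0.17 to 0.32, adjusted p = 0.704) on the HFD. In the gene models 78 bases of the exons of Ugp2 and 115 of those of Phka2 also belong to another gene (Gm12043 and Gm15243). Reads on these shared bases can be ambiguous, and only unambiguous reads were counted, so some may be missing.

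Gbe1 (chr16:70313949-70569716, plus strand, 16 exon blocks) had 92.0, 109.5, 109.7, 106 and 155.5 CPM in WT LFD and 112, 143, 118, 132 and 172 CPM in Adn-Lpin1-/- LFD, a log2 fold change of 0.24 (-0.12 to 0.60, adjusted p = 0.378 in edgeR's test), and over the HFD mice of both genotypes it ran from 87.2 to 167 CPM. Pygl (chr12:70190811-70231488, minus strand, 22 exon blocks) was the steadiest in relative terms of the abundant genes, with 509 to 662 CPM over all 20 mice and group means between 554.5 and 579 CPM. Its log2 fold changes in the 4 comparisons of groups lay between -0.06 and 0.02, and all their 95% intervals lay between -0.22 and 0.18. Phka2 (chrX:160502166-160598878, plus strand, 35 exon blocks) ran from 22.6 to 33.1 CPM, with log2 fold changes between -0.06 and 0.05 and intervals between -0.23 and 0.22. For Pygl and Phka2 the intervals thus leave room only for differences many times smaller than those of Ppp1r3g.

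**Figure D3:**
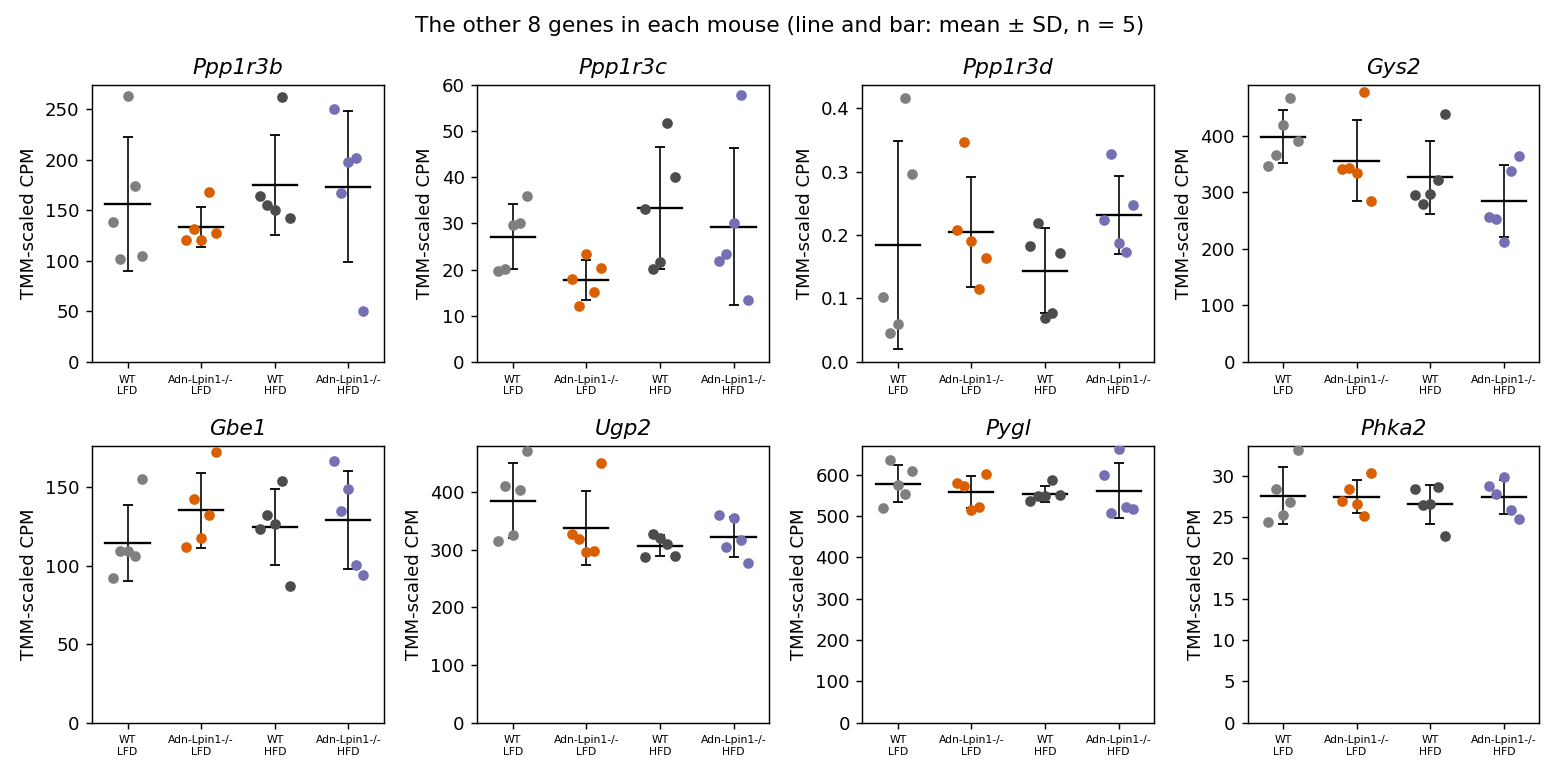
TMM-scaled CPM of the 8 other genes, with 1 point per mouse, a line at the group mean and a bar of 1 SD (n = 5), on axes that start at 0. The groups overlap in every panel, and the lowest Ppp1r3b point, at 50.5 CPM, is Adn-Lpin1-/- HFD mouse 5.

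Over the 7 tested genes other than Ppp1r3g, 0 passed an adjusted p of 0.05 in edgeR's test in any comparison, 0 in DESeq2's Wald test and 0 in voom with quality weights. Of all 13052 genes, edgeR called 14.4% between genotypes on the LFD, 18.6% between genotypes on the HFD, 1.1% between diets in WT, 2.46% between diets in Adn-Lpin1-/- and 0.0% for the difference of the genotype effects. At an unadjusted p under 0.05 edgeR gave Ugp2 between diets in WT and Ppp1r3c between diets in Adn-Lpin1-/-, and 0 of the 7 in each of the other comparisons. The groups were free of overlap for 0 of the 7 genes in any of the 4 comparisons, against 10.1% of all genes between genotypes on the LFD, 11.4% between genotypes on the HFD, 3.73% between diets in WT and 4.06% between diets in Adn-Lpin1-/-. The median log2 fold change of the 7 genes was -0.16 between genotypes on the LFD, with 1 of 7 above 0, and 0.02 on the HFD, with 4 above 0, where the medians of all genes were 0.01 and 0.00. Between diets it was -0.06 in WT and -0.01 in Adn-Lpin1-/-, with all-gene medians of 0.00 and 0.01. For the difference of the genotype effects the 7 log2 values ran from -0.19 to 0.42, and their lowest adjusted p was 0.80 in edgeR's test.

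**Figure D4:**
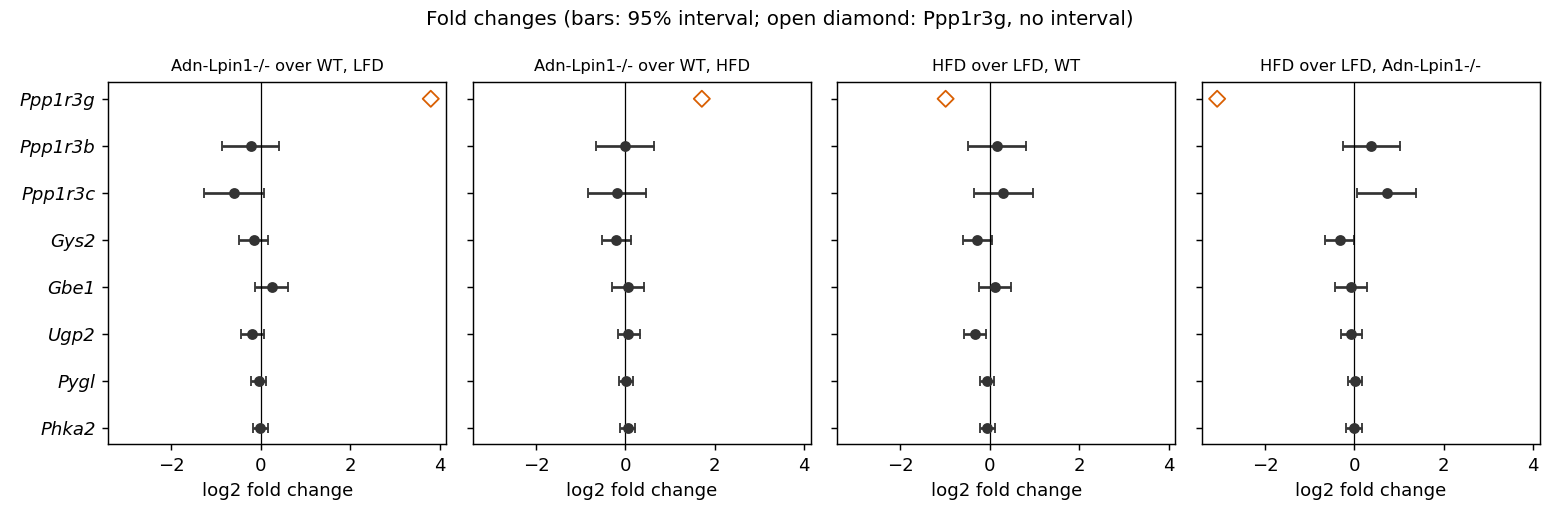
Log2 fold changes of the 8 tested genes in the 4 comparisons, as points with 95% intervals from the fit over all genes and, for Ppp1r3g, as an open diamond without interval. Ppp1r3g lies at 3.80, 1.71, -0.99 and -3.07, and the other 7 genes lie between -0.61 and 0.72.

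The pools, which hold RNA of the same mice a further time, were not used in these tests. Voom with the pools added as a sixth library of each group called Gbe1 and Ppp1r3c between genotypes on the LFD, Gys2 and Ugp2 between diets in WT and Gys2 between diets in Adn-Lpin1-/-. Such p-values are too small, since the pools are not further animals. For 33 of the 36 combinations of gene and group the value of the pool fell between the lowest and the highest of its 5 mice.

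Gys2 and Pygl made up nearly all transcripts of their families in every group, and Phka2 the greater part of its pair. Gys2 held between 98.8% and 99.6% of the summed RPKM of Gys2 and Gys1 in the 20 mice, and Pygl between 98.9% and 99.6% of that of Pygl, Pygb and Pygm. Phka2 held 80.04% ± 1.68 of the summed RPKM of Phka2 and Phka1 in WT LFD, and its mean in the other groups was between 79.4% and 81.0%. The log2 ratio of the RPKM of Gys2 to that of Pygl, synthase to phosphorylase, was -0.0176 ± 0.205 in WT LFD and -0.257 ± 0.259 in WT HFD, and -0.143 ± 0.345 in Adn-Lpin1-/- LFD against -0.475 ± 0.458 in Adn-Lpin1-/- HFD (SD, n = 5). All 4 groups overlapped in this ratio.

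Within the groups, 4 of the enzyme genes varied together from mouse to mouse. After the mean of each group was removed, Pearson's r of log2 CPM over the 20 mice was 0.864 for Gbe1 and Phka2 (Spearman's rho 0.853), 0.765 for Ugp2 and Phka2 (rho 0.759) and 0.707 for Gbe1 and Ugp2 (rho 0.672). Over the 6 pairs among Gbe1, Phka2, Ugp2 and Pygl it ran from 0.594 to 0.864, from 0.63 to 0.798 without the 2 mice farthest from the median, and from 0.48 to 0.776 once a trend with GC content and length was removed from each library, and it was positive in each of the 4 groups for every pair. Gys2 went the other way from these 4 genes, with r from -0.62 to -0.434 (rho from -0.538 to -0.23), from -0.541 to -0.381 without the 2 farthest mice, and each of these 4 pairs had a negative r in 3 of the 4 groups. Ppp1r3b and Ppp1r3c had an r of 0.484 (rho 0.299), which was 0.272 without the 2 farthest mice. In each pair the 2 mice left out were the farthest in 1 gene only, the earlier in the order of the opening. Mice far out in the other gene stayed. Ppp1r3g had an r between -0.226 and 0.351 with the other 7 genes. The 4 genes were grouped by these same values, and the r of other gene pairs was not taken for comparison. The 28 pairs come from the same libraries and the same scaling and are given as a description.

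**Figure D5:**
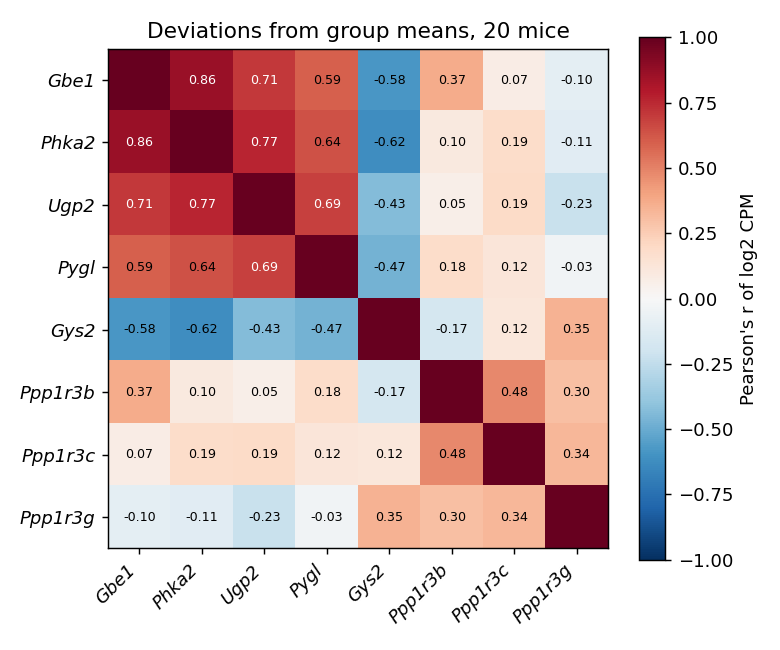
Pearson's r of log2 CPM between the 8 tested genes over 20 mice, after removal of the group means, from -1 (blue) to 1 (red). Gbe1, Phka2, Ugp2 and Pygl form a block of positive values from 0.59 to 0.86, against which Gys2 has values from -0.62 to -0.43.

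The windows of 250 bases before the RefSeq start sites of Gbe1 (chr16:70313699-70313948, plus strand) and Phka2 (chrX:160501912-160502161, plus strand), the pair with the highest correlation, are shown with the same 8 motifs in capitals.
Gbe1: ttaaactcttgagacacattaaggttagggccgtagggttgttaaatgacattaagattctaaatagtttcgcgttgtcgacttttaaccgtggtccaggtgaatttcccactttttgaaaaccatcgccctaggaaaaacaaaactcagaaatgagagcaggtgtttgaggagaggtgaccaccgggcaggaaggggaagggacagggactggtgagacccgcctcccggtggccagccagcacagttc
Phka2: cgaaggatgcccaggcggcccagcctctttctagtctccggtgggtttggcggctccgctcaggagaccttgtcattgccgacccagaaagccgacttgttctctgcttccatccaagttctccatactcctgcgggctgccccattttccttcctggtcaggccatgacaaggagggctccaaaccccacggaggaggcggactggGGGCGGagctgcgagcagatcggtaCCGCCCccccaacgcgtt
The Gbe1 window held 0 matches, and the Phka2 window held the SP1 box 43 bases before its start and once more on the opposite strand 18 bases before it. The windows have 48.8% and 62.8% of G and C, where the median of all windows is 52.4%.

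For 4 of the genes the tested genes with the most similar level over the 20 mice were taken by Pearson's r of log2 CPM. Nearest to Ppp1r3g were Chkb (r 0.891), Cuedc1 (0.886), Usp35 (0.884), Man2c1 (0.879) and Dtx3 (0.876). After removal of the group means these were 0.141, 0.159, 0.511, 0.331 and 0.352, so most of the likeness lay in the differences between the groups by which Ppp1r3g was chosen. Nearest to Ppp1r3b were Nfic (r 0.758, and 0.741 within the groups), Shld2, Fam234a, Itprid2 and Pink1, and nearest to Ppp1r3c were Cdc42ep4 (r 0.846, and 0.793 within the groups), Spata2l, Leap2, Aldh8a1 and Ppp2r5e. Nearest to Gys2 were Gm14586 (r 0.859, and 0.761 within the groups), Nit1, Marc1, Gpcpd1 and Vipas39. None of the other 8 genes of glycogen metabolism was among the 5 nearest of any of these 4.

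Of 29 further genes of glycogen metabolism 25 were tested, among them the catalytic subunits of PP1, glycogenin, the debranching enzyme and the muscle and brain isoforms. Between genotypes on the HFD, where 18.6% of all tested genes were called, 2 of the 25 were. This count was 1 with the replicate block and 5 with GC content and length trends removed, so the shares are not ranked. Of the 2 called, Gys1, the muscle type glycogen synthase, rose and Ppp1cb, a catalytic subunit of PP1, fell. Gys1 had 5.19 ± 1.04 CPM in Adn-Lpin1-/- HFD and 3.21 ± 0.535 CPM in WT HFD (SD, n = 5), a log2 fold change of 0.69 (0.37 to 1.01, adjusted p = 0.00488 in edgeR's test), with overlap of the groups. It made up 1.01% ± 0.130 of the summed RPKM of both synthases in Adn-Lpin1-/- HFD. Ppp1cb had 60.9 ± 5.67 and 72.5 ± 8.18 CPM, a log2 fold change of -0.25 (-0.41 to -0.10, adjusted p = 0.0243 in edgeR's test). The call of Gys1 held under every alternative tried, and that of Ppp1cb was lost with only the compared groups fitted (adjusted p = 0.0801), with the replicate block (0.0521), with GC content and length trends removed (0.072), without WT HFD mouse 2 (0.0754) and without Adn-Lpin1-/- HFD mouse 2 (0.0771), all in edgeR's test. Between genotypes on the LFD 0 of the 25 were called by edgeR, DESeq2 and voom, where edgeR called 14.4% of all tested genes. In edgeR's test 4 of the 25 had an unadjusted p under 0.05, Gsk3a, Pgm2, Ppp1cb and Pygb. Between diets 0 of the 25 were called by any of these 3 tools in either genotype, with 0 genes in WT and 2 genes (Gaa and Nhlrc1) in Adn-Lpin1-/- under an unadjusted p of 0.05 in edgeR's test. Of all tested genes edgeR called 1.1% between diets in WT and 2.46% in Adn-Lpin1-/-. For the difference of the genotype effects 0 were called by the 3 tools and 0 were under an unadjusted p of 0.05 in edgeR's test. There edgeR called 0.0% of all tested genes. The median log2 fold change of the 25 genes was 0.05 on the LFD and 0.04 on the HFD between genotypes, and 0.01 in WT and -0.01 in Adn-Lpin1-/- between diets.

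Of 21 genes that supply glucose or carry the signals that control glycogen, 20 were tested. Between genotypes on the LFD 3 of the 20 were called, a share close to the 14.4% of all tested genes. Hk1, a hexokinase of low abundance in hepatocytes, rose by a log2 fold change of 0.69 (0.29 to 1.09, adjusted p = 0.0201 in edgeR's test), and the insulin receptor Insr with -0.42 (-0.58 to -0.25, adjusted p = 0.00202) and the glucose transporter Slc2a2 (GLUT2) with -0.29 (-0.46 to -0.11, adjusted p = 0.0287) fell. The call of Hk1 was lost with only the compared groups fitted and without WT LFD mouse 3, Adn-Lpin1-/- LFD mouse 2 or mouse 5 (adjusted p from 0.0528 to 0.0613 in edgeR's test), and that of Slc2a2 in 6 alternatives, 3 of them the omission of a mouse (WT LFD mouse 4 or 5 or Adn-Lpin1-/- LFD mouse 3), with adjusted p from 0.0549 to 0.163. Between genotypes on the HFD 4 of the 20 were called, a share close to the 18.6% of all tested genes, of which Hk1 (log2 fold change 0.76), Hk2 (1.29) and Hk3 (0.98) rose and Insr (-0.43) fell, with adjusted p of 0.00918, 0.0148, 0.0294 and 0.00138 in edgeR's test. Without Adn-Lpin1-/- HFD mouse 2 the calls of Hk2 (log2 fold change 0.88, adjusted p = 0.0646) and Hk3 (0.60, adjusted p = 0.13) were lost, and that of Hk3 was also lost without WT HFD mouse 1, 2 or 3, with the replicate block and with GC content and length trends removed (adjusted p from 0.0519 to 0.0704). The call of Insr held under every alternative on both diets, as did that of Hk1 on the HFD. Insr had 101 ± 5.80 CPM in Adn-Lpin1-/- HFD and 137 ± 6.28 CPM in WT HFD, without overlap. Between diets 0 of the 20 were called in WT by edgeR, 0 by DESeq2 and 1 by voom, with 5 under an unadjusted p of 0.05 in edgeR's test. Of all tested genes edgeR called 1.1% there. For the difference of the genotype effects 0 of the 20 were called by edgeR, DESeq2 and voom, where edgeR called 0.0% of all tested genes. In edgeR's test 3 of the 20 were under an unadjusted p of 0.05. The median log2 fold change of the 20 genes was -0.02 between genotypes on either diet, -0.02 between diets in WT and 0.05 in Adn-Lpin1-/-.

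Between diets in Adn-Lpin1-/- 1 of the 20 tested genes of glucose control was called, where edgeR called 2.46% of all tested genes. This was G6pc, the catalytic subunit of glucose-6-phosphatase that releases glucose from the liver. It fell from 656 ± 118 to 224 ± 91.5 CPM (SD, n = 5), a log2 fold change of -1.55 (-2.24 to -0.87, adjusted p = 0.0168 in edgeR's test), with no overlap of the groups. Between genotypes on the LFD, G6pc had 656 ± 118 CPM in Adn-Lpin1-/- and 368 ± 127 CPM in WT, without overlap (log2 fold change 0.83, 0.16 to 1.51, adjusted p = 0.0892 in edgeR's test, and 0.0354 with only these groups fitted). In this comparison G6pc passed the threshold under 3 alternatives and did not under 26. On the HFD it had 224 ± 91.5 CPM in Adn-Lpin1-/- and 278 ± 147 CPM in WT, with overlap, and the log2 fold change had the other sign (-0.32, -0.99 to 0.35, adjusted p = 0.524 in edgeR's test). The difference of these genotype effects was -1.15 (-2.10 to -0.20, unadjusted p = 0.0201, adjusted p = 0.63 in edgeR's test). The comparisons of G6pc share their mice, as do those of Ppp1r3g.

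Markers of other liver cell types were compared between the genotypes by their summed levels, without a test. The level of 4 endothelial markers was between 97.5 and 116 CPM in Adn-Lpin1-/- HFD and between 62.5 and 90.3 CPM in WT HFD, without overlap. That of 5 Kupffer cell markers was between 132 and 285 CPM in Adn-Lpin1-/- HFD and between 103 and 135 CPM in WT HFD, with overlap. That of 5 stellate cell markers (Lrat, Dcn, Des, Reln and Col1a1) was between 143 and 275 CPM and between 127 and 183 CPM, again with overlap. None of these markers was at 0 throughout a group. On the LFD the stellate markers were between 146 and 271 CPM in Adn-Lpin1-/- and between 75.4 and 142 CPM in WT, without overlap. The 5 cholangiocyte markers summed to between 26.1 and 57.8 CPM in Adn-Lpin1-/- HFD and between 14.3 and 39.1 CPM in WT HFD, which overlapped, and the 4 lymphocyte markers to at most 5.07 CPM in any mouse. On the LFD the endothelial markers overlapped, at 76.25 to 129.4 CPM in Adn-Lpin1-/- and 54.4 to 88.3 CPM in WT. So did the Kupffer cell markers (105.4 to 211.1 and 86.6 to 159.5 CPM) and the cholangiocyte markers (34.0 to 82.6 and 22.6 to 50.5 CPM). The part of these cell types in the values of Gys1, Hk1, Hk2, Hk3 and Ppp1r3g was not tested.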

How the data were processed

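The authors demultiplexed reads with bcl2fastq, aligned them to GRCm38 with STAR 2.5.1a and counted uniquely aligned, unambiguous reads on Ensembl release 76 genes with featureCounts 1.4.6-p5. The deposited count, CPM and RPKM of each gene were available for 24 libraries. Tests and TMM-scaled CPM values were computed from the deposited counts, the deposited RPKM was used to compare genes and for shares, and the deposited CPM was not used. Symbols and positions came from GENCODE mouse release 21 (GRCm38).

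rRNA genes (355) were left out, and a gene was tested if 4 or more of the 20 libraries of single mice exceeded 1 CPM, which held for 13052 genes. The test was that of edgeR 4.0.16 (R 4.3.3), with TMM scaling, 4 group means in 1 fit, the quasi-likelihood test, Benjamini-Hochberg adjustment over all tested genes and a threshold of 0.05. Intervals cover 95% and were calculated from the fit. DESeq2 1.42.0 and voom with quality weights of limma 3.58.1 were alternatives, as were other filters and scalings, removal of GC content and length trends, a replicate block and the omission of each mouse. The fits were first tested on simulated data. Values, shares and figures were made with Python 3.11.15, pandas 2.3.3 and matplotlib 3.10.9.

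The members, gene lists and tests were chosen with earlier results of these data known. The genes named were all 9 genes, every called gene of the other glycogen and glucose control lists (at most 6 per comparison, by size of the fold change), and the 5 nearest genes of Ppp1r3g, Ppp1r3b, Ppp1r3c and Gys2. Genes with an unadjusted p under 0.05 were named after their values were seen, as was G6pc between genotypes. Total counts from 36260187 to 81072794 put 31 or more reads behind each Ppp1r3g value and 2 to 22 behind each Ppp1r3d value. Single mice served as replicates.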

Additional observations from a re-analysis of the deposited data

Results flagged for a closer look

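A mouse far from the other 4 of its group was found in 7 of 36 combinations of gene and group, as the gap to the nearest mouse divided by the range exceeded Dixon's critical value of 0.71. For independent, normally distributed values chance gives this in about 1 of 20 groups. The 36 combinations are in CPM and reuse the same 20 mice, so the 7 are not set against that rate. Ppp1r3g in Adn-Lpin1-/- HFD mouse 4 was at 9.10 CPM, against 3.53 to 4.59 CPM in the other mice. Ppp1r3b was at 168 CPM in Adn-Lpin1-/- LFD mouse 4, against 120.3 to 131 CPM, and at 262 CPM in WT HFD mouse 4, against 143 to 165 CPM. Gys2 was at 439 CPM in WT HFD mouse 5, against 280.1 to 322 CPM. Gbe1 was at 155.5 CPM in WT LFD mouse 5, against 92.0 to 109.7 CPM. Pygl was at 588 CPM in WT HFD mouse 4, against 536 to 551 CPM. Ugp2 was at 450.1 CPM in Adn-Lpin1-/- LFD mouse 5, against 295.5 to 327 CPM. The causes were not tested.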

How the results depend on the processing

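The log2 fold change of Ppp1r3g kept its direction under all alternatives and with any mouse left out, from 3.53 to 4.01 between genotypes on the LFD, 1.4 to 1.95 on the HFD, -1.24 to -0.77 between diets in WT and -3.39 to -2.81 in Adn-Lpin1-/-. Ppp1r3g was selected by this change in these same libraries, so its persistence is a description and supports nothing further. Of the 7 other tested genes 0 were called in any comparison except with voom and the pools, where 2 were called between genotypes on the LFD, 2 between diets in WT and 1 in Adn-Lpin1-/-, and the pools count the same mice again. That fit also called 4 other glycogen genes between genotypes on the LFD, 9 on the HFD, 4 between diets in WT and 3 in Adn-Lpin1-/-. On the HFD 2 other glycogen genes were called between genotypes as reported, 1 with only both groups fitted, 1 with the replicate block, 5 with GC content and length trends removed and 1 to 4 with a mouse left out (1 without WT HFD mouse 2 or Adn-Lpin1-/- HFD mouse 2). On the LFD leaving out a mouse gave 0 to 1 (Pgm2, without WT LFD mouse 5). Of the glucose control genes, for which alternatives were added after seeing the data, 3 were called between genotypes on the LFD as reported, 5 by DESeq2, 9 by voom with the pools, 6 with GC content and length trends removed and 2 to 5 with a mouse left out (5 without WT HFD mouse 5). On the HFD 4 were called as reported, 9 by voom with the pools, 8 with the trends removed and 2 to 6 with a mouse left out (2 without Adn-Lpin1-/- HFD mouse 2). Between diets 1 by voom and 5 by voom with the pools were called in WT, where 0 were as reported, and in Adn-Lpin1-/- 2 by DESeq2, 7 by voom with the pools and 1 to 2 with a mouse left out (2 without Adn-Lpin1-/- LFD mouse 5), where 1 was as reported. For the difference of the genotype effects voom with the pools called 2. The share of all genes called under each alternative is not given here, so these counts are not set against it. The replicate numbers did not pair the mice (median r of same-number mice -0.0112, 6 of 30 pairs over 0.1), and the replicate block changed no call of the 7 genes.

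Leaving out a mouse gave log2 fold changes of Ppp1r3b between genotypes from -0.34 to 0.04 on the LFD (above 0 without WT LFD mouse 3) and from -0.18 to 0.22 on the HFD (0.00 without Adn-Lpin1-/- HFD mouse 2, 0.17 without WT HFD mouse 4), of Ppp1r3b between diets in WT from -0.03 to 0.43 (below 0 without WT HFD mouse 4), and of Ppp1r3c between genotypes on the HFD from -0.59 to 0.02 (above 0 without WT HFD mouse 4). Without division by length, Ppp1r3b held 68.8% of the transcripts of the 4 subunits in Adn-Lpin1-/- LFD and 83.5% in WT HFD. Ppp1r3g held 1.69% in WT LFD and 0.725% in WT HFD. Depth limits Ppp1r3d, and 5 mice per group limit Ppp1r3b and Ppp1r3c, whose intervals span more than 1 log2 unit. The causes of these changes were not tested.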
